A study of Homo sapiens with 6 samples.

Results

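Epithelial sheets are held together by tight junctions, which seal the space between neighbouring cells, by cadherin and catenin complexes, which couple cell contacts to actin, and by desmosomes, which anchor keratin filaments at the membrane. Polarity proteins place these junctions along the cell border, membrane-bound serine proteases and their inhibitors tune the surface, and a small set of transcription and splicing factors maintains the epithelial programme. Carcinoma cells that pass towards a mesenchymal state commonly lose much of this equipment, and repressors such as SNAIL act by binding the E-box CAGGTG near the start sites of epithelial genes. The 42 genes described here cover these groups and were taken by name from the 58735 entries of the count table, with keratins left out. They comprise 11 tight junction genes, 4 polarity genes, 6 cadherins and catenins, 10 desmosome genes, 4 surface proteases and inhibitors, 2 surface glycoproteins and 5 epithelial factors.

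RNA was sequenced from MDA-MB-231, an established mesenchymal-type line of human triple-negative breast cancer that is known for lacking E-cadherin. Cells received 2 µM Azeliragon, a small-molecule antagonist of the AGER product RAGE, which binds advanced glycation end products and S100 proteins, or the vehicle DMSO for 72 h in the same serum-containing medium. There were 3 libraries per condition, named a, b and c. The title of the series places the comparison in RAGE and SNAIL signalling during epithelial-mesenchymal plasticity. Since separate cultures are not stated for libraries of the same condition, p-values here reflect library-to-library spread that may be technical.

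The libraries held 41455979 to 44313584 reads assigned to genes. The limit that a count of 0 allows, 3 reads, corresponded to 0.0677 to 0.0724 CPM (counts relative to the library total). Gene levels in CPM given below are also scaled by the TMM factor of each library (0.974 to 1.022). The DMSO a library differed from DMSO b and c. On the first principal component, which carried 36.8% of the variance, the Azeliragon libraries lay at -24.2 to -20.1, DMSO a at -0.94 and DMSO b and c at 32.2 and 35.7. On the second component DMSO c stood apart, at -29.5, with DMSO a at 20.8 and DMSO b at 23.6. Results are given with and without DMSO a, which lay nearest to the Azeliragon libraries on the first component. Without DMSO a the genes called in the whole table rose from 1009 to 3916. Single fold changes moved either way. The log2 fold change of OCLN went from 0.58 to 0.76 and that of PARD6B from -0.89 to -0.82. The reason for the rise in calls was not tested. Because DMSO a was singled out by its position, calls gained without it are not independent support. All 8 markers of MDA-MB-231 and mesenchymal cells had reads in every library, but their levels differed widely. VIM had a mean of 1834 CPM with Azeliragon and 2036 CPM in DMSO (log2 fold change -0.15, SE 0.08). SPARC was low, at a mean of 0.59 CPM with Azeliragon and 0.34 CPM in DMSO. The 9 luminal markers were mixed. PGR, TFF1 and AGR2 had 0 reads and FOXA1 and ESR1 few, while KRT8 averaged 982 CPM with Azeliragon and 1069 CPM in DMSO, KRT18 287 CPM with Azeliragon and 332 CPM in DMSO, XBP1 70.8 CPM with Azeliragon and 90.5 CPM in DMSO, and GATA3 23.2 CPM with Azeliragon and 27.6 CPM in DMSO.

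A short stretch of promoter is shown for 3 genes whose RNA differed between the conditions and whose window holds the SNAIL-type E-box outside annotated exons. RefSeq promoter windows (GRCh38.p14; 250 bases before to 50 after the start) were matched for 25 of the 42 genes and searched on both strands. Capitals mark CAGGTG or its reverse complement CACCTG, and each sequence is written 5′ to 3′ on the strand of the gene. The MUC1 stretch (chr1:155192955-155193027, minus strand) carries a tandem pair at positions -88 and -81 from the start. The SPINT1 stretch (chr15:40844421-40844476, plus strand) carries a match at -26 from the downstream of its start sites (40844477). That stretch lies inside the annotated gene, and the window at the upstream start (40844048) holds 0 matches. The DSP stretch (chr6:7541463-7541528, plus strand) carries a match at -178.
MUC1: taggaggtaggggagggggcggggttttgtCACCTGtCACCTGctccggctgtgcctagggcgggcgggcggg
SPINT1: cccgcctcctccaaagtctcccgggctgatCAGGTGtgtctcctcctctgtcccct
DSP: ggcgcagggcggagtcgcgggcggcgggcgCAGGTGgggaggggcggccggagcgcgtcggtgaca

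CAGGTG or CACCTG occurred in 14 of the 25 genes with a window, against 24.1% of 27305 genes with a window. The match was present for 4 of 5 genes that were lower with Azeliragon (ELF3, JUP, MUC1 and SPINT1), for DSP, which was higher, and for 7 of 16 genes that did not pass the test. CLDN4, which was lower, had no match in its window. The broader E-box CANNTG, of which CAGGTG is a form, occurred in 18 of the 25 genes and in 73.1% of all genes with a window. AACCGGTT, a grainyhead-type motif, occurred in 0 of the 25 genes and in 0.16% of all genes with a window. A match describes letters in a window and is not evidence of binding.

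These genes spanned a wide range of levels in MDA-MB-231 cells. Levels are set side by side as TPM, which is computed from the counts and exon length. In DMSO 5 genes exceeded 50 TPM and together held 76.3% of the summed TPM of all 42. The highest was CTNNA1, at 248 ± 3.27 TPM with Azeliragon and 231 ± 11.3 TPM in DMSO (SD, n = 3 each, as for the next 4 genes). SPINT2 followed at 161 ± 2.31 TPM with Azeliragon and 179 ± 9.11 TPM in DMSO, and CTNNB1 at 139 ± 1.69 TPM with Azeliragon and 152 ± 11.5 TPM in DMSO. CLDN4 had 75.3 ± 3.21 TPM with Azeliragon and 94.5 ± 1.13 TPM in DMSO, and CTNND1 had 55.6 ± 1.85 TPM with Azeliragon and 53.5 ± 12.02 TPM in DMSO. Another 9 genes lay between 10 and 50 TPM in DMSO, 14 between 1 and 10, and 14 at or under 1 TPM. In the DMSO order 31 of the 41 neighbouring pairs overlapped between libraries, so most adjacent ranks were not separated.

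**Figure D1:**
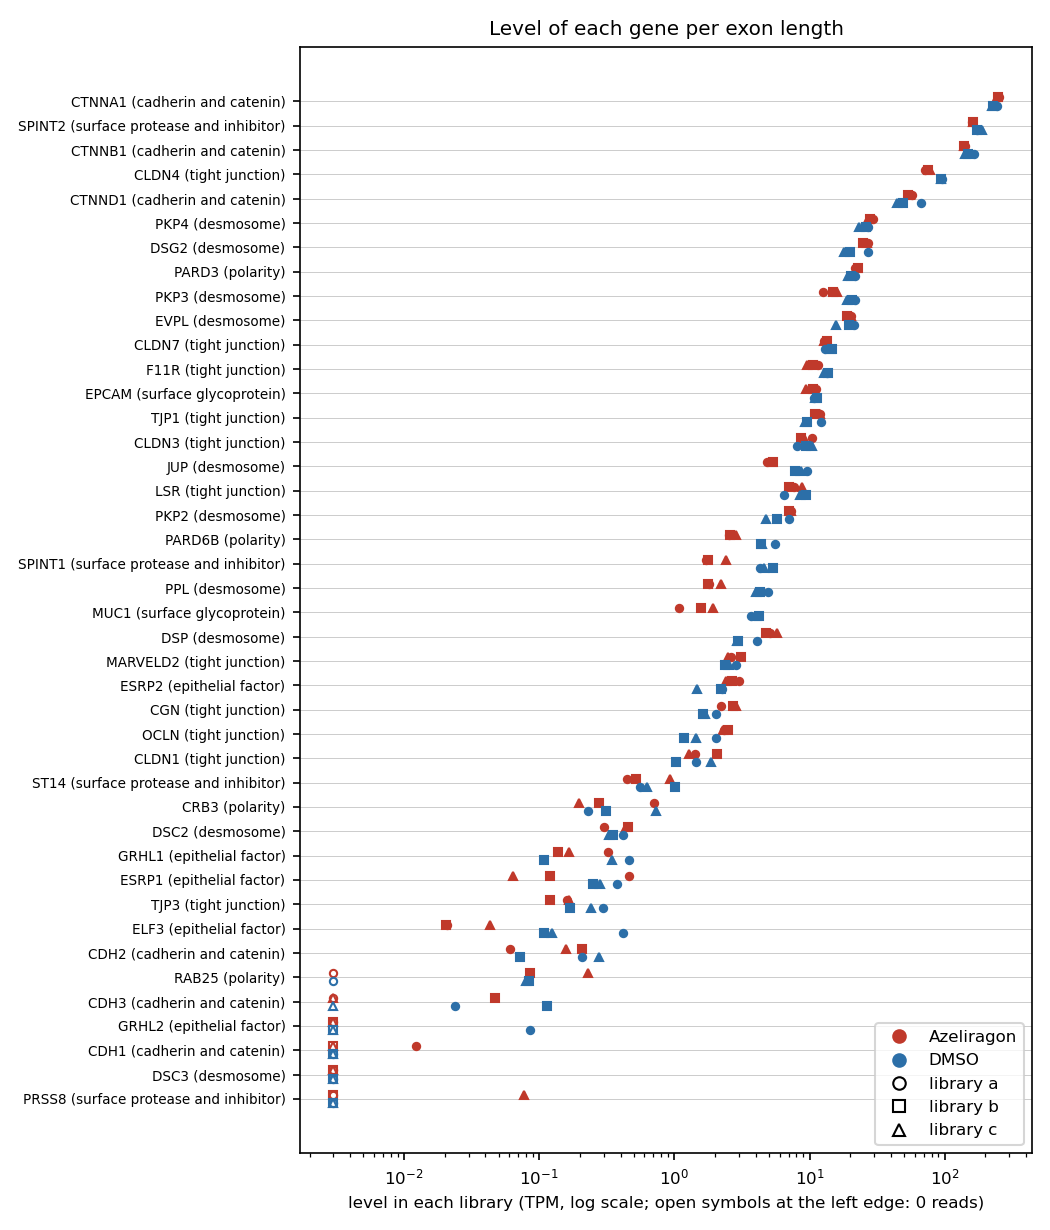
Level of each of the 42 genes in each library (TPM, log scale), ordered by the DMSO mean, with red for Azeliragon, blue for DMSO and the symbol for the library letter. Open symbols at the left edge are libraries with 0 reads. The catenins, SPINT2 and CLDN4 lead, and CDH1, CDH2 and CDH3 lie near the bottom.

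The cadherin genes CDH1, CDH2 and CDH3 had few reads or none. CDH1, which encodes E-cadherin, had 1, 0 and 0 reads with Azeliragon (libraries a, b and c) and 0 reads in each DMSO library, where 0 of 131596980 reads allows up to 0.0228 CPM. CDH3, which encodes P-cadherin, had 0, 4 and 0 reads with Azeliragon and 2, 10 and 0 in DMSO. CDH2, which encodes N-cadherin and could be tested, had 0.22 ± 0.12 CPM with Azeliragon and 0.30 ± 0.17 CPM in DMSO (SD, n = 3 each; log2 fold change -0.44, SE 0.61). The other genes too low to test came from several roles. CRB3, a Crumbs polarity gene, had 15, 6 and 4 reads with Azeliragon and 5, 7 and 17 in DMSO. RAB25, which encodes a recycling GTPase of epithelial cells, had 0, 2 and 5 reads with Azeliragon and 0, 2 and 2 in DMSO. The desmocollin gene DSC3 had 0 reads in all 6 libraries. PRSS8, which encodes the protease prostasin, had 3 reads, all in Azeliragon c, and the grainyhead-like factor gene GRHL2 had 7 reads, all in DMSO a. These 7 genes are described by their reads and were not tested for a difference, and limits of this kind cover counting error only. Among 8 cadherin genes set side by side, nearly all TPM came from CDH4, which encodes R-cadherin and belongs to a list of related genes. Further cadherin genes were not part of this sum. It made up 99.7% of the summed TPM of 8 cadherin genes with Azeliragon and 99.4% in DMSO.

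Of the 42 genes, 35 passed the filter on low counts and were tested, and 10 of them (28.6%) had an adjusted p under 0.05 in edgeR's quasi-likelihood test with Benjamini-Hochberg adjustment over all genes. The background share was 6.27% of 16081 genes. The 1 gene that was higher with Azeliragon was DSP, against a background of 2.75% higher. The 9 that were lower were CLDN4, F11R, PARD6B, JUP, PKP3, PPL, SPINT1, MUC1 and ELF3, against a background of 3.53% lower. The groups of libraries did not overlap for 19 of the 35 tested genes (7 higher, 12 lower), where the background was 25.3%. The 42 genes were chosen with earlier results of these data known, so setting their shares beside the background is no test of the set. The median log2 fold change of the 35 was -0.14 and that of all tested genes was -0.004. With a stricter filter on low counts, which kept 29 of the genes, their median was 0.02, so its sign rests on the genes with few reads. Exons of CLDN7, CTNNA1, CTNND1, DSG2, PKP4, SPINT2, ESRP2 and CDH2 overlap other annotated genes, so their counts are uncertain, as are those of F11R, SPINT1, MUC1 and ELF3. In bulk RNA, fewer cells of a kind and less RNA per cell cannot be told apart.

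The calls did not all rest equally on the 6 libraries. PARD6B, JUP, PKP3, PPL, SPINT1 and MUC1 were called in every set of 5 libraries. Without Azeliragon c or DMSO b the count of higher genes in edgeR was 0, and without Azeliragon a the count of lower genes was 6. Of all genes tested, 2.7%, 2.86% and 2.68% were called in these sets, in that order. Without DMSO a, 17 of 36 tested genes (47.2%) were called, 7 higher and 10 lower, but so were 23.7% of all 16508 genes tested (12.9% higher and 10.8% lower). The 7 higher were OCLN, TJP1, CGN, CTNND1, DSP, DSG2 and PKP2, and the 10 lower were CLDN4, F11R, PARD6B, CTNNB1, JUP, PKP3, PPL, SPINT1, SPINT2 and MUC1. DMSO a was closer to the Azeliragon mean than to the mean of DMSO b and c for 14 of the 35 genes, and for 0 of the 10 called with all libraries. Those calls used DMSO a as a control, which disfavours genes where it lies near Azeliragon. The count of 0 is therefore no separate support for them. Fold changes were also set against exon length. Across the 35 genes Spearman's rho between log2 exon length and log2 fold change was 0.39 (Pearson's r 0.13), and 0.50 (r 0.26) without DMSO a, against 0.13 (r 0.06) across 16070 tested genes. The genes share libraries and are not independent, and the part of length in the result was not tested beyond removal of each library's trend on length and GC content, which left all 10 calls in place.

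**Figure D2:**
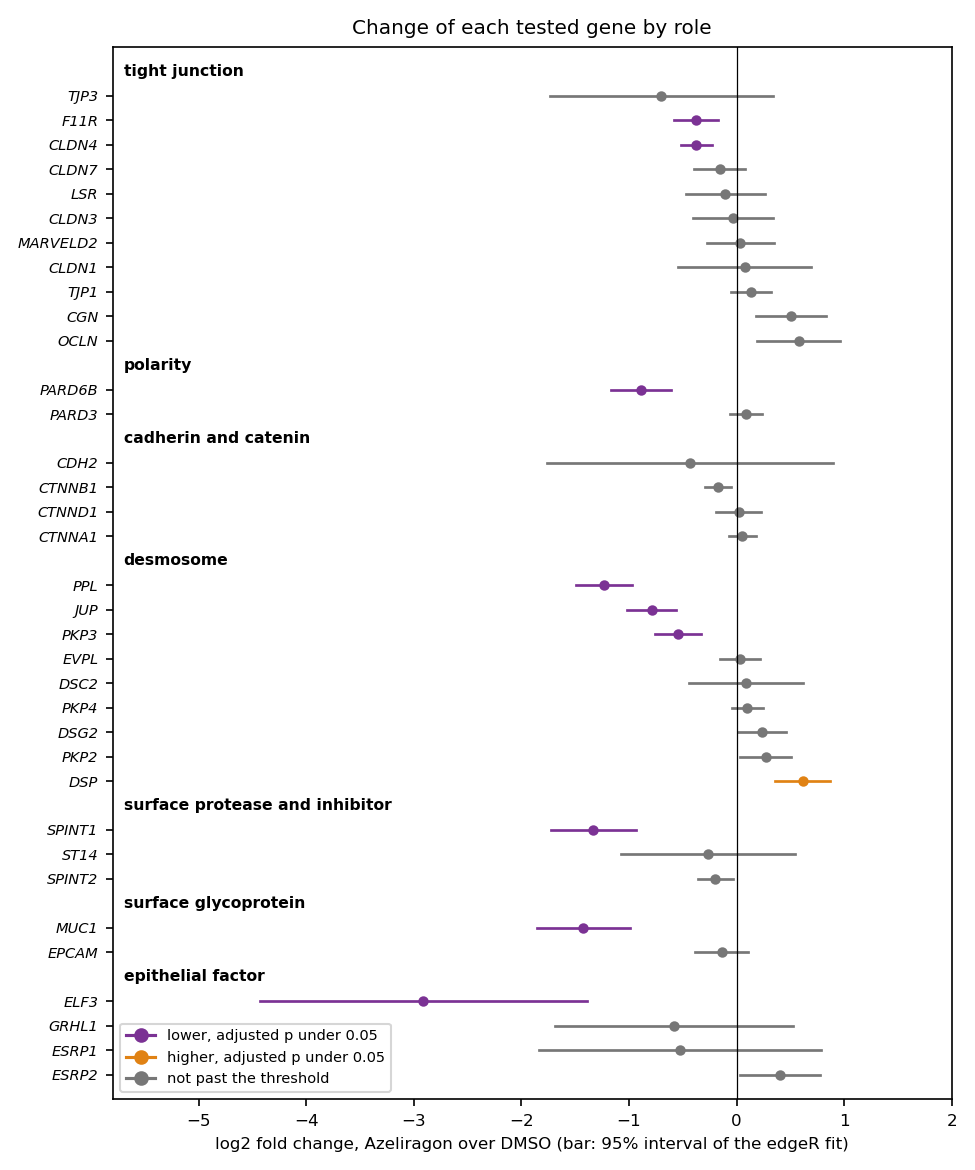
Log2 fold change of the 35 tested genes, Azeliragon over DMSO, grouped by role, with the 95% interval of the edgeR fit as a bar. The 9 genes in purple were lower and DSP in orange was higher at an adjusted p under 0.05, and grey genes did not pass.

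Markers of other cells were read in the same fit. Of the 7 fibroblast markers 3 of the 4 tested were lower with Azeliragon (PDGFRB, log2 fold change -0.75; COL1A1, -0.77; COL1A2, -1.96), and the summed level of the list was 11.3 to 13.3 CPM with Azeliragon and 19.6 to 22.3 CPM in DMSO. The defining marker PDGFRA had 0 reads, and DCN and COL3A1 had 10 reads or fewer in all. Of 9 luminal markers 1 of the 5 tested was lower, XBP1 (log2 fold change -0.35), and the list summed to 1336 to 1401 CPM with Azeliragon and 1385 to 1610 CPM in DMSO. The 8 blood markers summed to 0.868 to 1.078 CPM with Azeliragon and 1.24 to 1.599 CPM in DMSO, with CD3E, MS4A1, HBB and HBA1 at 0 reads. The 5 endothelial markers summed to 5.96 to 6.29 CPM with Azeliragon and 3.15 to 4.50 CPM in DMSO, with KDR called higher (log2 fold change 0.71). AXL (log2 fold change 0.26) was the 1 higher gene among 8 mesenchymal markers, whose sum was 6397 to 6446 CPM with Azeliragon and 6131 to 6241 CPM in DMSO. The calls of XBP1, KDR and AXL were lost in some sets of 5 libraries (XBP1 without Azeliragon a or c, KDR and AXL without any library other than DMSO a), with edgeR adjusted p up to 0.0698, 0.124 and 0.164. Within each of these lists the gene with the highest DMSO level that did not pass was KRT8 among luminal markers (log2 fold change -0.12), CD14 among blood markers (-0.58), LUM among fibroblast markers (0.25), PECAM1 among endothelial markers (-0.86) and VIM among mesenchymal markers. Chosen after its values were seen, the endothelial gene VWF had 15, 11 and 28 reads with Azeliragon and 2, 3 and 9 in DMSO, without overlap (log2 fold change 1.96, SE 0.64; edgeR adjusted p = 0.103). The luminal gene ESR1, also chosen in that way, was too low to test and had 10, 9 and 14 reads with Azeliragon and 0, 0 and 5 in DMSO. Mitochondrial transcripts took 4.88% to 4.96% of reads with Azeliragon and 5.03% to 5.71% in DMSO. The part of these markers and of mitochondrial reads in the results on junction genes was not tested.

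Among the tight junction genes, 2 of 11 were lower and 0 were higher in edgeR, as in DESeq2 and limma-voom. At an unadjusted p under 0.05, 2 (OCLN and CGN) were higher. The share of all genes at an unadjusted p was not counted, so such numbers have no background here or below. CLDN4 encodes claudin-4, the most abundant claudin in these cells. It had 105, 111 and 114 CPM in Azeliragon libraries a, b and c, against 135, 144 and 149.5 CPM in DMSO. Every Azeliragon library lay below every DMSO library. The gene (chromosome 7, 73799542 to 73832693, plus strand; GRCh38, GENCODE 29) was 1.297-fold lower (log2 fold change -0.37, SE 0.07; edgeR adjusted p = 0.00507). Its call was lost without Azeliragon a (adjusted p 3.33e-06 to 0.0570 over the sets of 5 libraries). CLDN4 made up 48.9% ± 1.68 of the summed TPM of 18 claudin genes with Azeliragon and 53.3% ± 1.09 in DMSO (SD, n = 3 each), and that sum was 154 ± 1.295 TPM with Azeliragon and 177 ± 5.82 TPM in DMSO.

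F11R encodes JAM-A, an immunoglobulin-type adhesion protein of the junction. It had 18.2, 16.99 and 15.1 CPM with Azeliragon and 20.6, 22.8 and 21.9 CPM in DMSO, so the groups did not overlap. The gene (chromosome 1, 160995211 to 161021348, minus strand) was 1.298-fold lower (log2 fold change -0.38, SE 0.09; edgeR adjusted p = 0.0353). Its call held without DMSO a and was lost without any other library (adjusted p 0.00222 to 0.198). It shares 1853 exon bases with AL591806.3 on the same strand, which makes its count uncertain. The 2 most abundant tight junction genes that did not pass were CLDN7 and TJP1. CLDN7, another claudin, had 9.93, 10.5 and 9.81 CPM with Azeliragon and 9.81, 11.9 and 12.1 CPM in DMSO, and the groups overlapped (log2 fold change -0.16, SE 0.11). TJP1, which encodes the scaffold ZO-1, had 42.0, 38.6 and 41.6 CPM with Azeliragon and 40.8, 35.4 and 35.1 CPM in DMSO (log2 fold change 0.13, SE 0.08), again with overlap. TJP1 was called without DMSO a (log2 fold change 0.21, edgeR adjusted p = 0.0421), but not when the trend on length and GC content was removed as well (0.06, edgeR adjusted p = 0.548).

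OCLN, which encodes occludin, and CGN, which encodes the plaque protein cingulin, had higher values with Azeliragon without passing the test on all libraries. OCLN had 4.84, 5.30 and 4.80 CPM with Azeliragon and 4.12, 2.57 and 3.31 CPM in DMSO (log2 fold change 0.58, SE 0.18; edgeR adjusted p = 0.0788). CGN had 4.54, 5.66 and 5.86 CPM with Azeliragon and 4.05, 3.48 and 3.75 CPM in DMSO (log2 fold change 0.51, SE 0.15; edgeR adjusted p = 0.0689). In both genes every Azeliragon library lay above every DMSO library. Without DMSO a their log2 fold changes were 0.76 and 0.57 and both were called (edgeR adjusted p = 0.00212 for OCLN and 0.0145 for CGN). The other 5 genes were not called in any set of libraries. They were the claudin genes CLDN1 (log2 fold change 0.08, SE 0.28), CLDN3 (-0.03, SE 0.17), the tricellular junction genes MARVELD2 (0.04, SE 0.14) and LSR (-0.10, SE 0.17), and the scaffold gene TJP3 (-0.70, SE 0.47).

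Of the polarity genes 2 of 4 could be tested and 1 was lower. PARD6B encodes a PAR6 scaffold, which joins atypical protein kinase C to CDC42 in the PAR complex. It had 3.75, 3.81 and 4.17 CPM with Azeliragon, against 7.91, 6.67 and 7.16 CPM in DMSO. The 2 ranges were far apart relative to the spread within each. The gene (chromosome 20, 50731544 to 50756795, plus strand) was 1.85-fold lower (log2 fold change -0.89, SE 0.13; edgeR adjusted p = 0.00146). By TPM PARD6B made up 5.50% ± 0.40 of the 3 PAR6 genes with Azeliragon and 9.92% ± 1.11 in DMSO (SD, n = 3 each). PARD6A held 85.7% with Azeliragon and 82.1% in DMSO, and PARD6G held 8.84% with Azeliragon and 7.95% in DMSO. PARD3, which encodes the partner scaffold PAR3, had 44.015, 46.8 and 45.0 CPM with Azeliragon and 42.6, 42.9 and 42.5 CPM in DMSO. Its groups did not overlap, but the difference was small and did not pass (log2 fold change 0.09, SE 0.07; edgeR adjusted p = 0.528).

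Among the cadherins and catenins 0 of 4 tested genes were called with all libraries in edgeR, DESeq2 or limma-voom, and 1 (CTNNB1) had an unadjusted p under 0.05 in edgeR. CTNNA1, which encodes α-catenin, the link to actin, had 687, 686 and 669.7 CPM with Azeliragon and 648, 650.5 and 668 CPM in DMSO (log2 fold change 0.05, SE 0.06). CTNNB1, which encodes β-catenin, had 521, 517 and 512 CPM with Azeliragon and 591, 578 and 577 CPM in DMSO (log2 fold change -0.17, SE 0.06; edgeR adjusted p = 0.0955). The CTNNB1 groups did not overlap and were separated by more than their spread, and the gene was called without DMSO a (log2 fold change -0.16, edgeR adjusted p = 0.00923) and after removal of the trend on length and GC content. CTNND1, which encodes p120-catenin, had 157, 149 and 151 CPM with Azeliragon and 177, 141 and 132 CPM in DMSO. Its DMSO libraries lay on both sides of the Azeliragon libraries, DMSO a being the highest of all 6 (log2 fold change 0.02, SE 0.10, and 0.16 without DMSO a, where the edgeR adjusted p was 0.0302). With the trend on length and GC content removed as well as DMSO a, CTNND1 was at 0.04 and no longer called (edgeR adjusted p = 0.566, and 0.78 with the trend removed and all libraries).

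The desmosome genes changed in both directions, with 1 of 9 tested genes higher and 3 lower. DSP encodes desmoplakin, the plakin that ties the desmosomal plaque to keratin filaments. It had 15.9, 15.2 and 18.1 CPM with Azeliragon, against 12.4, 9.71 and 9.92 CPM in DMSO. All Azeliragon libraries were above all DMSO libraries, and DMSO a was the DMSO library nearest to them. The gene (chromosome 6, 7541575 to 7586717, plus strand) was 1.53-fold higher (log2 fold change 0.62, SE 0.12; edgeR adjusted p = 0.0082), and 1.67-fold higher without DMSO a. Its call was lost without Azeliragon c or DMSO b (adjusted p 1.36e-05 to 0.0587 over the sets of 5 libraries). The DSP promoter stretch given above holds the same E-box as those of the lower genes MUC1 and SPINT1.

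JUP encodes plakoglobin, an armadillo protein shared by desmosomes and cadherin complexes. It had 7.40, 8.32 and 8.13 CPM with Azeliragon and 14.2, 12.5 and 14.5 CPM in DMSO. No Azeliragon library came near the DMSO range. The gene (chromosome 17, 41754604 to 41786931, minus strand) was 1.73-fold lower (log2 fold change -0.79, SE 0.10; edgeR adjusted p = 0.000823). PKP3, which encodes the plaque protein plakophilin-3, had 14.7, 17.6 and 18.6 CPM with Azeliragon and 24.6, 25.3 and 24.3 CPM in DMSO. Its Azeliragon libraries were lower and more spread out than its DMSO libraries. PKP3 (chromosome 11, 392614 to 404908, plus strand) was 1.46-fold lower (log2 fold change -0.54, SE 0.10; edgeR adjusted p = 0.00608).

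PPL encodes periplakin, a plakin that joins desmosomes and the cortex to intermediate filaments. It had 4.33, 4.31 and 5.23 CPM with Azeliragon and 11.3, 10.8 and 10.5 CPM in DMSO. The DMSO libraries lay within a narrow band well above the Azeliragon libraries. The gene (chromosome 16, 4882507 to 4960741, minus strand) was 2.35-fold lower (log2 fold change -1.23, SE 0.12; edgeR adjusted p = 8.2e-05), the smallest adjusted p among the 35 genes. Its partner plakin EVPL, which encodes envoplakin, had 46.9, 44.5 and 47.4 CPM with Azeliragon and 47.8, 47.8 and 39.9 CPM in DMSO, with overlapping groups (log2 fold change 0.03, SE 0.08).

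The remaining desmosome genes did not pass with all libraries. PKP4, a plakophilin gene and the most abundant of them by TPM, had 86.8, 84.2 and 79.3 CPM with Azeliragon and 77.5, 81.0 and 75.3 CPM in DMSO (log2 fold change 0.10, SE 0.07). DSG2, which encodes a desmosomal cadherin and held 98.5% of the TPM of 7 desmosomal cadherin genes with Azeliragon and 98.3% in DMSO, had 51.7, 48.3 and 51.0 CPM with Azeliragon and 50.6, 40.2 and 37.6 CPM in DMSO. DMSO a lay inside the Azeliragon range for DSG2, and DMSO b and c lay below it (log2 fold change 0.23, SE 0.10, and 0.37 without DMSO a, where the edgeR adjusted p was 0.000322). PKP2, another plakophilin gene, had a log2 fold change of 0.27 (SE 0.11), and 0.37 without DMSO a (edgeR adjusted p = 0.0093). DSC2, the other expressed desmosomal cadherin gene, had 1.55 ± 0.34 CPM with Azeliragon and 1.47 ± 0.09 CPM in DMSO (SD, n = 3 each).

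Because related desmosome genes went different ways, their TPM ratios within a library differed between conditions. The pairs were chosen after their values had been seen. For both pairs below an exact permutation test gave p = 0.1 (adjusted p = 0.1 over 11 pairs). That is the lowest value 3 against 3 libraries allow, so the test could not decide. The ratio of JUP to DSP was 0.95, 1.12 and 0.92 with Azeliragon and 2.33, 2.63 and 2.98 in DMSO. The ratio of PPL to EVPL was 0.0901, 0.0946 and 0.108 with Azeliragon and 0.231, 0.221 and 0.258 in DMSO. In each pair the Azeliragon ratios were well below the DMSO ratios in all libraries, DMSO a included. Among plakophilins PKP3 held 28.9% ± 3.20 of the summed TPM with Azeliragon and 39.4% ± 0.79 in DMSO, PKP4 held 56.5% ± 3.03 with Azeliragon and 49.4% ± 0.67 in DMSO, and PKP2 held 14.5% ± 0.39 with Azeliragon and 11.2% ± 1.28 in DMSO (SD, n = 3 each).

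**Figure D3:**
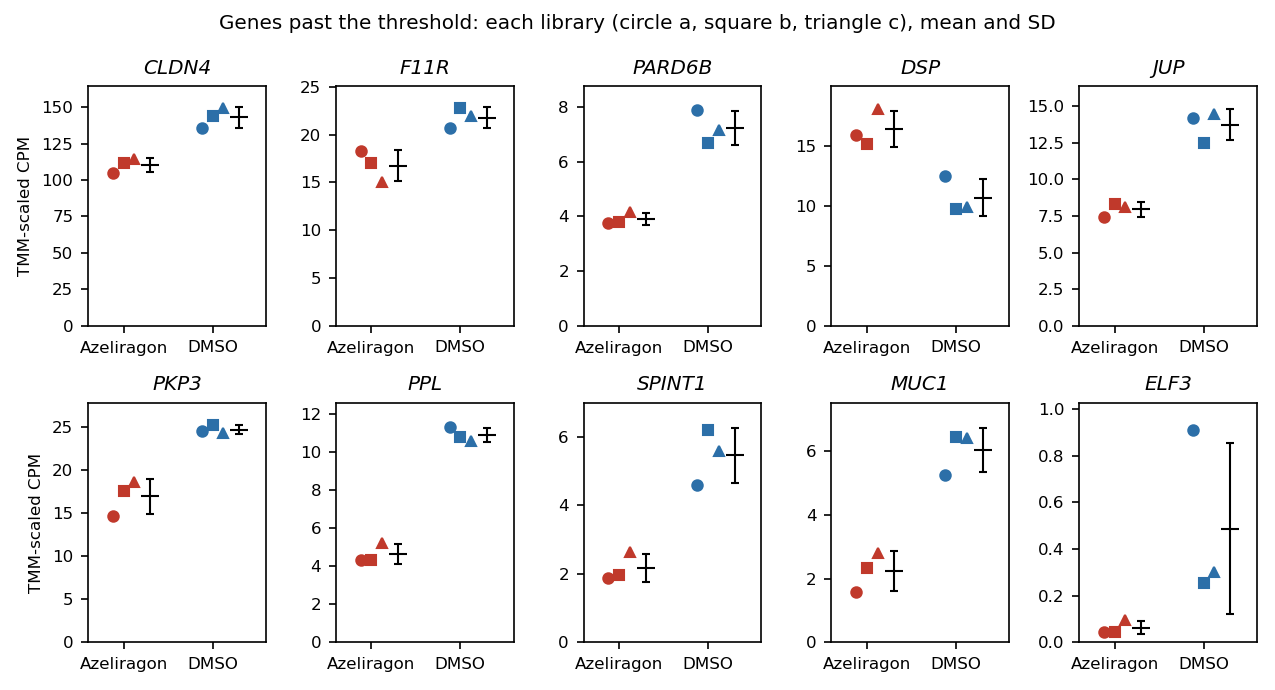
TMM-scaled CPM of the 10 called genes in each library, Azeliragon in red and DMSO in blue, with mean and SD (n = 3) beside the points and each axis starting at 0. DSP is the 1 gene with Azeliragon above DMSO, PARD6B, JUP, PPL, SPINT1 and MUC1 show wide gaps, and the ELF3 panel shows the high value of DMSO a.

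Of the surface proteases and their inhibitors 1 of 3 tested genes was lower. SPINT1 encodes HAI-1, a Kunitz-type inhibitor of matriptase and of the activator of hepatocyte growth factor. It had 1.88, 1.97 and 2.65 CPM with Azeliragon and 4.61, 6.19 and 5.59 CPM in DMSO. The highest Azeliragon library was still below the lowest DMSO library. The gene (chromosome 15, 40844018 to 40858207, plus strand) was 2.52-fold lower (log2 fold change -1.33, SE 0.18; edgeR adjusted p = 0.00103). It shares 100 exon bases with SPINT1-AS1 on the opposite strand, and because strand use in counting is not given its count is uncertain. SPINT2, which encodes the related inhibitor HAI-2, had 256, 265 and 263 CPM with Azeliragon and 272, 293 and 334 CPM in DMSO. Its groups did not overlap but DMSO a was close to the Azeliragon libraries (log2 fold change -0.20, SE 0.08; edgeR adjusted p = 0.163 with all libraries and 0.000658 without DMSO a). ST14, which encodes the protease matriptase, had 0.60, 0.71 and 1.25 CPM with Azeliragon and 0.73, 1.44 and 0.93 CPM in DMSO, and the groups overlapped (log2 fold change -0.27, SE 0.37).

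MUC1 encodes a transmembrane mucin of the apical surface. It had 1.58, 2.34 and 2.82 CPM with Azeliragon and 5.25, 6.44 and 6.42 CPM in DMSO. All DMSO libraries, DMSO a included, lay well above the Azeliragon libraries. The gene (chromosome 1, 155185824 to 155192916, minus strand) was 2.69-fold lower (log2 fold change -1.43, SE 0.20; edgeR adjusted p = 0.00113), and it is the gene with the tandem E-box shown above. It shares 48 exon bases with AL713999.1 on the same strand, so its count carries some uncertainty. EPCAM, which encodes an epithelial adhesion glycoprotein, had 8.68, 8.37 and 7.38 CPM with Azeliragon and 8.15, 9.34 and 9.43 CPM in DMSO, with overlapping groups (log2 fold change -0.14, SE 0.11).

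The epithelial factors were weakly expressed. ELF3 encodes an ETS transcription factor of epithelial cells. It had 2, 2 and 4 reads with Azeliragon and 41, 11 and 13 reads in DMSO. The groups did not overlap, but DMSO a alone supplied most of the reads. Azeliragon libraries held 10.96% of its 73 reads (exact 95% Clopper-Pearson interval 4.85% to 20.5%). That interval treats reads as independent draws and leaves out the spread between libraries. The gene (chromosome 1, 202007945 to 202017188, plus strand) was 7.53-fold lower (log2 fold change -2.91, SE 0.70; edgeR adjusted p = 0.0284), and 4.29-fold lower without DMSO a. Its call was lost without any of the Azeliragon libraries or DMSO a (adjusted p 0.0252 to 0.152 over the sets of 5 libraries) and in limma-voom (adjusted p = 0.0525). It shares 664 exon bases with ELF3-AS1 on the opposite strand and 664 with AL691482.3 on the same strand, so its count is uncertain.

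ESRP2, which encodes an epithelial splicing regulator, had 5.16, 4.65 and 4.15 CPM with Azeliragon and 3.74, 4.03 and 2.78 CPM in DMSO. Every Azeliragon library was above every DMSO library, but the gene did not pass (log2 fold change 0.40, SE 0.17; edgeR adjusted p = 0.205). GRHL1, a grainyhead-like transcription factor gene, had 0.79, 0.34 and 0.41 CPM with Azeliragon and 1.11, 0.28 and 0.93 CPM in DMSO (log2 fold change -0.58, SE 0.51). ESRP1, the paralogue of ESRP2, had 0.70, 0.18 and 0.10 CPM with Azeliragon and 0.55, 0.39 and 0.46 CPM in DMSO (log2 fold change -0.52, SE 0.60). GRHL1 and ESRP1 overlapped between conditions, and at these levels a moderate difference was not detectable.

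**Figure D4:**
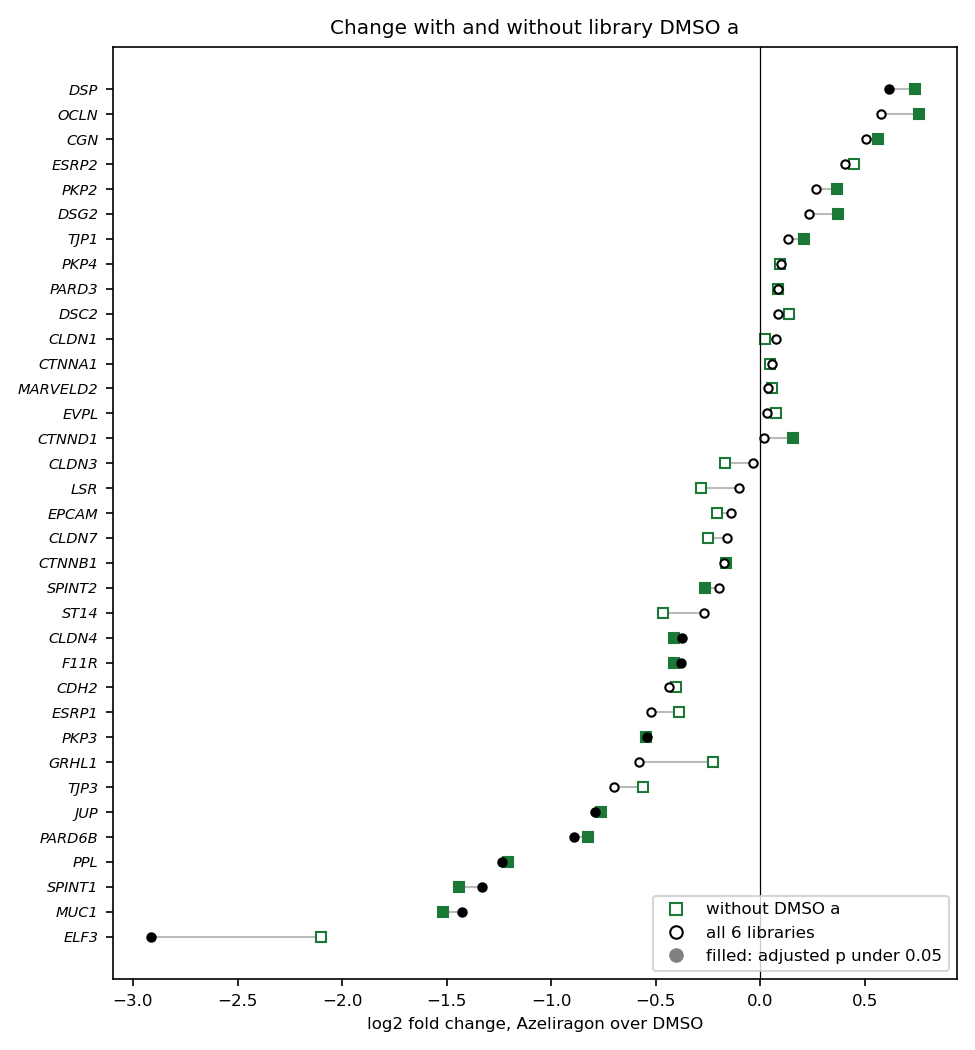
Log2 fold change (Azeliragon over DMSO) of the 35 genes without DMSO a (green squares) and with all 6 libraries (black circles), filled where the edgeR adjusted p was under 0.05. Of the fits plotted, OCLN, CGN, PKP2, DSG2, TJP1, CTNND1, CTNNB1 and SPINT2 were called only without DMSO a, and ELF3 only with all libraries.

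Related genes outside the 42 were read from 8 further lists of junction, polarity, hemidesmosome, gap junction, protease and epithelial factor genes. The surface protease list also holds the ligand gene HGF and the receptor genes MET, MST1R and F2RL1. Of their 108 genes 59 were tested, and 2 were higher and 4 lower (10.2% called, against 6.27% of all tested genes), with a median log2 fold change of 0.07. These lists too were chosen with earlier results known, so the shares are no test. CLDN2, a pore-forming claudin gene that overlaps RIPPLY1 on the opposite strand, had 5.03, 5.20 and 4.17 CPM with Azeliragon and 11.2, 10.6 and 11.2 CPM in DMSO (log2 fold change -1.198, SE 0.12; edgeR adjusted p = 0.00011). Its share of claudin TPM was 2.94% ± 0.34 with Azeliragon and 5.67% ± 0.24 in DMSO (SD, n = 3 each). CLDN2 was lower, as CLDN4 was, and its groups did not overlap. ITGB4, which encodes the β4 integrin of hemidesmosomes, had 126, 130.5 and 134 CPM with Azeliragon and 227, 191 and 195 CPM in DMSO (log2 fold change -0.65, SE 0.07; edgeR adjusted p = 0.000257).

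CDH4 had 216, 223 and 219 CPM with Azeliragon and 186, 154 and 152 CPM in DMSO (log2 fold change 0.42, SE 0.08; edgeR adjusted p = 0.00784), and its call was lost without Azeliragon b or DMSO b (adjusted p up to 0.0681). All Azeliragon libraries of CDH4 were above the DMSO libraries. The other calls were ILDR2, a tricellular junction gene that was higher (log2 fold change 0.45, SE 0.10), RAB11B, a recycling GTPase gene that overlaps an antisense gene and was lower (-0.28, SE 0.08), and the connexin gene GJB2, which was lower (-0.55, SE 0.13). Calls of ILDR2 and RAB11B held without DMSO a and were lost without any other library (edgeR adjusted p up to 0.143 and 0.234), and that of GJB2 was lost without Azeliragon a, Azeliragon c or DMSO b (up to 0.131). The most abundant genes of the lists that did not pass were MARVELD1 (log2 fold change -0.07), SCRIB (0.14), NECTIN2 (-0.04), PERP (0.08), PLEC (0.09), GJA1 (-0.11), F2RL1 (0.19) and KLF4 (-0.07). The lists of other desmosome genes, other surface protease genes and other epithelial factors had 0 called genes among 1, 6 and 6 tested in edgeR, and 0 in DESeq2 and limma-voom. At an unadjusted p under 0.05 the surface protease list had 3 (the receptor gene F2RL1 and the protease genes TMPRSS6 and PRSS22). The others had 0, and no background share was counted.

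Of 10 repressors of epithelial genes 7 were tested and 1 was lower. SNAI1, which encodes SNAIL, had 28, 14 and 13 reads with Azeliragon and 73, 91 and 82 reads in DMSO, without overlap (log2 fold change -2.12, SE 0.33; edgeR adjusted p = 0.00236). ZEB1 had 15.8 ± 2.01 CPM with Azeliragon and 15.5 ± 3.23 CPM in DMSO, and SNAI2 17.3 ± 1.15 CPM with Azeliragon and 20.4 ± 2.25 CPM in DMSO (SD, n = 3 each), and neither passed the test (edgeR adjusted p = 0.949 and 0.202). TCF3, the most abundant of the list by TPM, had a log2 fold change of 0.004 (SE 0.07), and TWIST1, TWIST2 and TCF4 had 0 reads in all 6 libraries. The part of SNAI1 in the values of the junction genes was not tested.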

How the data were processed

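Polyadenylated RNA of 6 libraries, 3 Azeliragon and 3 DMSO, was read from the raw counts per gene that the authors deposited. Per the submitters' processing notes, the tools were STAR 2.6.1d, featureCounts 1.5.0-p3 and limma and the build GRCh38, with no role stated. Not given in the sources used here are strand use, the annotation and how multi-mapping reads were counted. GENCODE 29, which held 58722 of the 58735 names, gave coordinates and exon length. A further 2 entries named as dates, with 0 reads, were left out.

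The edgeR 4.0.16 functions filterByExpr, glmQLFit and glmQLFTest were run with TMM scaling and treatment as the only term, under R 4.3.3. Benjamini-Hochberg adjustment ran over 16081 genes with a threshold of 0.05. Replicates differed beyond sampling noise (the lowest chi-square per degree of freedom was 4.39). The procedure was tested on simulated data. Alternatives used limma 3.58.1, DESeq2 1.42.0, other scalings and filters, a 1.2-fold glmTreat test, the trend on length and GC content, and sets of 5 libraries.

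The 42 genes and all lists were chosen with earlier results of these data known. The naming rule gives per-library values for each called gene and the 2 most abundant genes not called in each role, and names from each other list the called genes and the most abundant gene not called. OCLN, CGN, CTNND1, EVPL, PKP2, ESRP1, VWF, ESR1, the ratios and the TPM shares were picked after their values were seen. So were the 3 genes of the surface protease list at an unadjusted p.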

Additional observations from a re-analysis of the deposited data

How the results depend on the processing

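The 10 called genes kept their direction under every setting that gave them a value. With all 6 libraries and the main settings 1 gene was higher and 9 were lower, among 1009 called of all genes. RLE factors, library totals, limma-voom, DESeq2 and the stricter filter gave 1 higher and 8 or 9 lower. Without a filter on low counts 3 genes were higher and 1685 genes of the whole table were called. With the trend on length and GC content removed the values were 2 and 1691, and with that trend and DMSO a both removed 5 and 4047. Tested against a 1.2-fold change, 0 were higher, 5 were lower (PARD6B, JUP, PPL, SPINT1 and MUC1) and 313 genes were called overall. Over the sets of 5 libraries the count of higher genes ranged from 0 to 7, of lower genes from 6 to 10 and of all called genes from 445 to 3916. The replicate letters did not pair the libraries (correlations of same-letter deviations 0.026, 0.023 and -0.039). The replicate block gave 1 higher and 8 lower genes, losing F11R (edgeR adjusted p = 0.0559), and 908 called overall.

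Values for single genes numbered 759, of which 20 had the other sign, 0 of them for a called gene. With the trend removed CLDN3 was at 0.0904, CTNNA1 at -0.015 and CTNND1 at -0.037 on the log2 scale. With the trend and DMSO a removed CLDN3 was at 0.028, CTNNA1 at -0.076, DSC2 at -0.011 and PKP4 at -0.036. Over the sets of 5 libraries the log2 fold change ranged from -0.17 to 0.36 for CLDN1, -0.17 to 0.10 for CLDN3, -0.0704 to 0.0966 for MARVELD2, -0.28 to 0.0247 for LSR, -0.82 to 0.0296 for CDH2, -0.0635 to 0.16 for CTNND1, -0.0299 to 0.26 for DSC2, -0.0474 to 0.077 for EVPL and -0.65 to 0.0441 for ST14. The cause of these shifts was not tested. ELF3 had no adjusted p from DESeq2 and did not enter the stricter filter. The tested genes with the fewest reads were CDH2 and TJP3 (67 each) and ELF3 (73).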
